A study of Arabidopsis thaliana with 2 samples.

Results

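The plant defensin genes of Arabidopsis thaliana are described here on 1 array of the auxin-resistant mutant axr4-2 and 1 array of the wild type. The group was defined as 9 loci: PDF1.1, PDF1.2a, PDF1.2b, PDF1.2c, PDF1.3 and PDF1.4 of the PDF1 class, and PDF2.1, PDF2.2 and PDF2.3 of the PDF2 class. These loci were chosen with earlier results of these arrays known, so that their values are a description and carry no test. Of the 9 loci, 7 had a probe set named for them, among 13356 genes named on the array in all. The loci PDF1.2c and PDF1.3 are not analysed here.

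The axr4-2 plants were a mutant line of ecotype Col0, and the wild-type plants were Col0 controls. Whole plants of either genotype were grown with 24 h of light a day at 22 °C, and the labels give growth stage 1.02 for both. The source names hold another code, not explained in the labels, that may stand for an age, so the stage is not certain. AXR4, the product of the mutated gene, resides in the endoplasmic reticulum and is needed to place the auxin influx carrier AUX1 in the plasma membrane; the AXR4 transcript is not analysed here, and no check of the mutant label was made. The labels do not say how many plants were pooled, and with 1 array a genotype no difference below has a replicate check.

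Plant defensins are small, secreted proteins held in a compact fold by disulphide bonds, and many of them inhibit the growth of fungi. PDF1.2 is the textbook marker of the jasmonate and ethylene branch of plant defence: both hormones act together through the transcription factors ERF1 and ORA59 to switch it on, and salicylic acid counteracts it. The PDF2 genes are known for being expressed in healthy tissue without an attack.

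The data are ATH1 arrays, on which several short probes report on a transcript and are summarised as 1 intensity on a linear scale. Values of different probe sets are not comparable as transcript levels, so that only the values of the same gene on both arrays are compared. A probe set whose name ends in _s_at or _x_at can bind more than 1 transcript. A gene was taken as measured if the array with its higher value placed it at the 50th percentile or above, which was 39.5 in axr4-2 and 42.7 in wild type. Values below the 25th percentile were raised to it as a floor (12.0 in axr4-2 and 13.5 in wild type) before axr4-2 was divided by wild type and log2 taken. Of the 7 defensin genes with a probe set, 5 were measured, and each of the 5 exceeded the 50th percentile on both arrays, so that none of them passed through 1 genotype alone.

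PDF1.2a and PDF1.2b, the jasmonate- and ethylene-responsive defensins, were more than 2-fold lower on the axr4-2 array than on the wild-type array. PDF1.2a (AT5G44420) read 77.2 in axr4-2 against 168.9 in wild type, which is a ratio of 0.457 (log2 ratio -1.13). Its probe set, 249052_at, is not marked as shared. PDF1.2b (AT2G26020) read 248.5 in axr4-2 against 571.2 in wild type, which is a ratio of 0.435 (log2 ratio -1.20). Its probe set, 257365_x_at, is marked as shared. PDF1.2a, PDF1.2b and PDF1.2c are near-identical copies, so the signal of this probe set can include transcripts of the other copies, and the values of PDF1.2a and PDF1.2b may not be independent. The log2 ratio of PDF1.2b minus that of PDF1.2a was -0.07.

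PDF1.4 (AT1G19610), a further gene of the PDF1 class, was also lower on the axr4-2 array, by less than 2-fold. It read 113.1 in axr4-2 against 175.6 in wild type (log2 ratio -0.63), on the unshared probe set 261135_at. PDF1.1 (AT1G75830), whose protein is known from seeds, read 6.6 in axr4-2 against 1.2 in wild type. Both values lay below the floor of their array, so no ratio is given for it. Among the 3 measured PDF1 genes the log2 ratios therefore spanned -1.20 to -0.63, all on the same side of 0.

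The measured PDF2 genes were nearly equal on both arrays. PDF2.2 (AT2G02100, also named LCR69) read 600.8 in axr4-2 against 666.8 in wild type (log2 ratio -0.15). PDF2.3 (AT2G02130, also named LCR68) read 757.3 in axr4-2 against 770.9 in wild type (log2 ratio -0.03), and the ratio turned to 0.09 when each array was centred on its median. PDF2.1 (AT2G02120) was dim and went the other way, with 32.4 in axr4-2 against 13.6 in wild type (log2 ratio 1.25). Both values lay under the 50th percentile, and the wild-type value sat just above the floor and below the brightest control probe set for Bacillus transcripts on that array (27.1). When the 40th percentile served as floor, the log2 ratio of PDF2.1 was 0.16. These 3 PDF2 probe sets are not marked as shared.

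**Figure D1:**
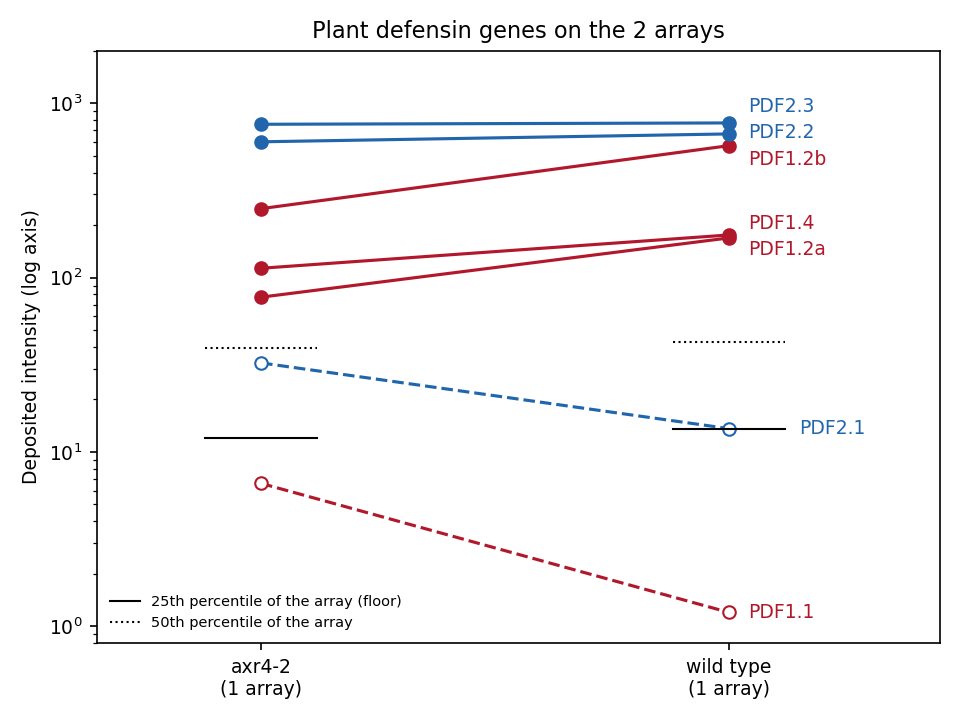
Deposited intensity (log axis) of the 7 defensin genes that have a named probe set on the axr4-2 array (left) and the wild-type array (right), with red for PDF1 genes, blue for PDF2 genes, and open points with dashed lines for genes below the filter. Short bars mark the 25th (solid) and 50th (dotted) percentile of each array. The lines of PDF1.2a, PDF1.2b and PDF1.4 slope up towards wild type, those of PDF2.2 and PDF2.3 are nearly level, and PDF1.1 and PDF2.1 lie below the 50th percentile on both arrays.

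The only yardstick for the error of a single ratio came from genes read by a further probe set. In 30 genes with a pair of measured probe sets, the difference between their ratios gave an SD of 0.41 (log2) for 1 probe set, which measures the spread between probe sets and not between plants. The log2 ratio of PDF1.2a was 2.76 times that SD in size, that of PDF1.2b 2.94 times and that of PDF1.4 1.55 times. The log2 ratios of all 6381 measured genes also had an SD of 0.41. The multiples therefore also describe each gene's distance within the spread of all genes and are not a separate error scale. The ratios of PDF2.2 and PDF2.3, and the gap between PDF1.2a and PDF1.2b, were smaller than 1 such SD. PDF1.2a and PDF2.3 differed by -1.10 in their log2 ratios. The SD of 0.41 is that of 1 ratio and is too small a yardstick for a difference between 2 ratios.

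Of the 5 measured defensin genes, 2 were 2-fold or more lower in axr4-2, against 1.47% of all measured genes (94 of 6381). None of the 5 was 2-fold or more higher, against 0.94% of all measured genes (60 of 6381). Because the genes were chosen with these values known, nothing is read from the comparison. With the filter raised to the 75th percentile the same 5 genes remained, and 1.01% of 3083 genes were 2-fold or more lower. The split of all genes depended on scaling: median centring gave 88 higher and 59 lower, quantile normalization 76 higher and 70 lower, and a lowess fit that takes out the trend with intensity 78 higher and 66 lower. The median log2 ratio was -0.63 over the 5 measured defensin genes and -0.04 over all measured genes. All 5 ratios lay below 0, with PDF2.3 turning under median centring as given above, while 54.1% of all measured genes lay below 0.

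PDF1.2a and PDF1.2b lay in the low tail of all ratios, PDF1.4 at 7.0% from the bottom, and the PDF2 ratios nearer to the middle. The loci were chosen with these values known, so their places are a description from which nothing is read. PDF1.2a and PDF1.2b may also share 1 signal, as given above. Of the 6381 measured genes, 43 had a ratio as low as that of PDF1.2b or lower, 56 as low as that of PDF1.2a and 444 as low as that of PDF1.4, each count including the gene itself. PDF2.2 stood at 38.1% from the bottom and PDF2.3 at 51.4%. Ratios were narrower among bright genes. Of 739 measured genes with a mean log2 intensity at or above that of PDF1.2b, 4 were 2-fold or more lower (0.541%), and the SD of their log2 ratios was 0.28. Only 2 of these 739, PDF1.2b included, had a ratio as low as that of PDF1.2b. Of 2773 genes with a mean log2 intensity at or above that of PDF1.2a, 18 were 2-fold or more lower (0.649%), and 10 had a ratio as low as that of PDF1.2a.

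**Figure D2:**
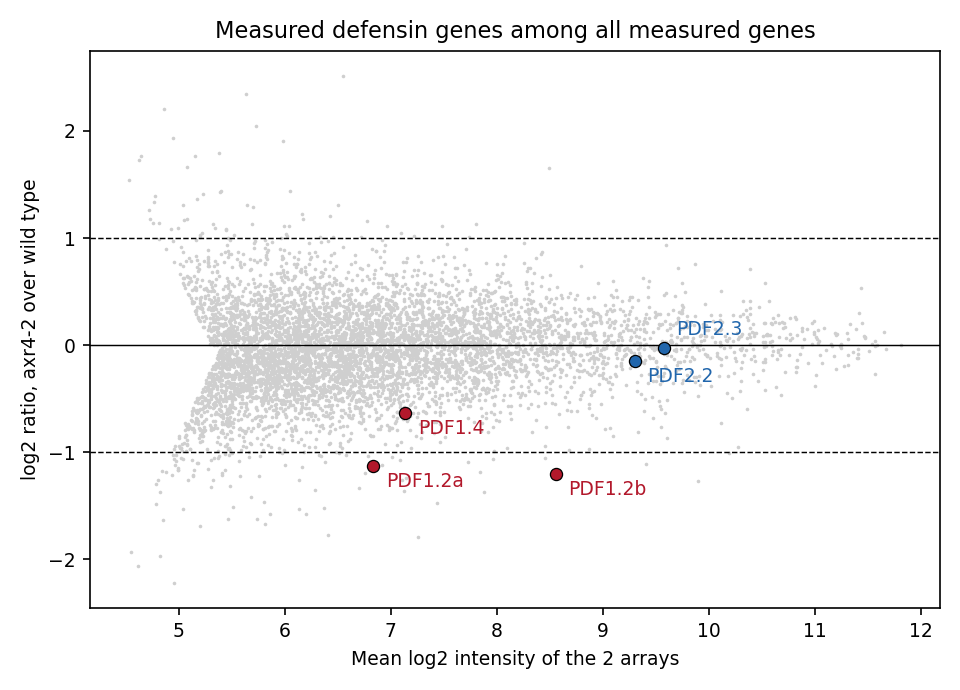
Log2 ratio of axr4-2 over wild type against the mean log2 intensity of the 2 arrays for all 6381 measured genes (grey), with the 3 measured PDF1 genes in red and the 2 measured PDF2 genes in blue. Dashed lines mark a 2-fold difference. PDF1.2a (-1.13) and PDF1.2b (-1.20) lie below the lower dashed line, PDF1.4 (-0.63) lies between that line and 0, and PDF2.2 and PDF2.3 lie near 0.

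Control probe sets for RNA quality differed between the arrays alongside these ratios. Degraded RNA raises the quotient of 3′ and 5′ probe set signals, and for actin it was 2.12 in axr4-2 against 3.23 in wild type. For ubiquitin it was 1.81 in axr4-2 against 2.26 in wild type, and for GAPDH 1.05 in axr4-2 against 1.03 in wild type. Per the labels, the mean scan background was 70.79 for axr4-2 against 80.02 for wild type. The part of either in the defensin ratios was not tested. In bulk tissue, fewer cells of a type that expresses a defensin and less of its RNA per cell cannot be told apart.

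The 3 shoot markers and the only measured root marker were close to equal on both arrays. Of 2 root markers listed, only PYK10 had a named probe set. Of the photosynthesis genes, LHCB4.1 had a log2 ratio of 0.12, PRK of 0.11 and RCA of 0.08, and the root beta-glucosidase PYK10 read 2982 in axr4-2 against 2967 in wild type (0.01, a sign that turned with scaling, to -0.04 with the trend removed). Of 10 seed storage and oil-body genes listed, only PAP85 had a named probe set. This vicilin-like storage protein gene read 19.4 in axr4-2 against 56.0 in wild type (log2 ratio -1.53). It passed the filter through its wild-type value alone, its axr4-2 value was close to the brightest Bacillus control on that array (18.1), and its log2 ratio was -1.12 when the 40th percentile served as floor. The part of seed remains in the defensin ratios was not tested.

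Other members of the wider defensin-like family that had a named probe set lay mostly at the floor. The share of all named genes at the floor was not counted, so nothing is read from this. RefSeq names 108 further genes as defensins or as low-molecular-weight cysteine-rich proteins, and 6 of them had a named probe set. PDF2.5, the 1 measured gene of the 6, read 67.7 in axr4-2 against 56.9 in wild type (log2 ratio 0.25). PDF2.4, PDF2.6, LCR24, LCR59 and LCR80 lay at the floor on both arrays, between 0.6 and 5.7 in axr4-2 and between 1.2 and 13.2 in wild type, so no ratio is given for them. With PDF2.5 added, the 3 measured genes of the PDF2 class read -0.15, -0.03 and 0.25. The 3 measured PDF1 genes all read -0.63 or less, and PDF1.2a and PDF1.2b among them may share 1 signal. The defensin loci were chosen with their values known, so nothing is read from this contrast between the classes.

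The hormone signalling and defence genes around PDF1.2 could be followed only in part. Across 7 lists of jasmonate, ethylene and salicylic acid genes, 7 of 68 genes had a named probe set and 4 were measured. None of the 4 was 2-fold or more apart. Of all measured genes, 1.47% were 2-fold or more lower and 0.94% higher, so nothing is read from this count. Of the 4, EIN3 and RTE1 are signalling genes, and THI2.2 and AT2G43590 come from the list of defence genes. No gene of the lists for jasmonate synthesis, JAZ repressors, MYC-branch jasmonate genes and salicylic acid genes had a named probe set, and ERF1 and ORA59 are not analysed here.

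EIN3, the transcription factor at the end of the ethylene pathway that activates ERF1, read 135.0 in axr4-2 against 170.3 in wild type (log2 ratio -0.34). RTE1, which promotes the activity of the ethylene receptor ETR1, read 52.5 in axr4-2 against 99.9 in wild type (log2 ratio -0.93). GRX480, a glutaredoxin that binds TGA factors and can repress PDF1.2, was below the filter, with 21.0 in axr4-2 against 27.0 in wild type. The ratio of EIN3 was smaller in size than the SD of 0.41 for 1 probe set, and that of RTE1 was larger.

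Of 6 genes listed as ethylene and jasmonate defence genes, 2 were measured. THI2.2 lay nearer to 0 than PDF1.2, and AT2G43590 lay above 0. Whether these genes respond to either hormone was not tested, so they do not show how the hormone branch behaved. The thionin gene THI2.2, which encodes another small antimicrobial peptide, read 1205.7 in axr4-2 against 1348.5 in wild type (log2 ratio -0.16). Its relative THI2.1, a jasmonate-induced thionin, was below the filter with 14.9 in axr4-2 against 15.8 in wild type. The listed locus AT2G43590 read 334.0 in axr4-2 against 197.5 in wild type (log2 ratio 0.76). The listed locus AT2G43580 lay at the floor on both arrays, with 2.3 in axr4-2 against 2.7 in wild type.

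Several defensin genes lie next to each other in the genome. In the RefSeq gene order, PDF1.2a is followed directly by PDF1.2c on chromosome 5, PDF1.3 directly by PDF1.2b on chromosome 2, and PDF2.1 directly by PDF2.3 elsewhere on chromosome 2, with PDF2.2 close by. Among the 3 protein-coding genes on either side of each defensin gene, 10 other genes were measured, and their median log2 ratio was -0.10. The ratios of these 10 neighbours ran from -0.99 to 0.97, with 6 below 0 and 4 above. None was 2-fold or more apart, against 1.47% of all measured genes lower and 0.94% higher, so nothing is read from this count. Beside PDF1.2a, the gene just before it, AT5G44410, read 54.3 in axr4-2 against 78.1 in wild type (-0.52), while AT5G44400, 1 gene further, read 73.6 in axr4-2 against 37.5 in wild type (0.97). Beyond PDF1.2c, AT5G44450 read 40.6 in axr4-2 against 57.5 in wild type (-0.50). CML43, the next gene, read 47.5 in axr4-2 against 62.0 in wild type (-0.38). Beside PDF1.4, AT1G19600 read 299.7 in axr4-2 against 235.1 in wild type (0.35). Near PDF1.1, for which no ratio is given, lay the lowest of the 10, AT1G75860. It read 63.4 in axr4-2 against 126.2 in wild type (-0.99), which is close to 2-fold. The neighbours were chosen by place, after the defensin values had been seen.

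The ratios of PDF1.2a and PDF1.2b stayed 2-fold or more lower in all 13 alternative values that were computed for them. Several of the 13 could not differ, because each gene has 1 probe set with values above every floor used. The floors, the mean over probe sets and, for PDF1.2a, leaving out shared probe sets thus returned the reported ratio. Only median centring, quantile normalization and the lowess fit could move these ratios. PDF1.2a ranged from -1.13 to -1.02 and PDF1.2b from -1.25 to -1.09, with the values nearest to 0 under median centring. PDF1.4 ranged from -0.63 to -0.52 and PDF2.2 from -0.20 to -0.04, while PDF2.3 lay between -0.08 and 0.09. Median centring shifted the median of all measured genes by 0.11, and shifted each defensin gene by about the same amount.

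**Figure D3:**
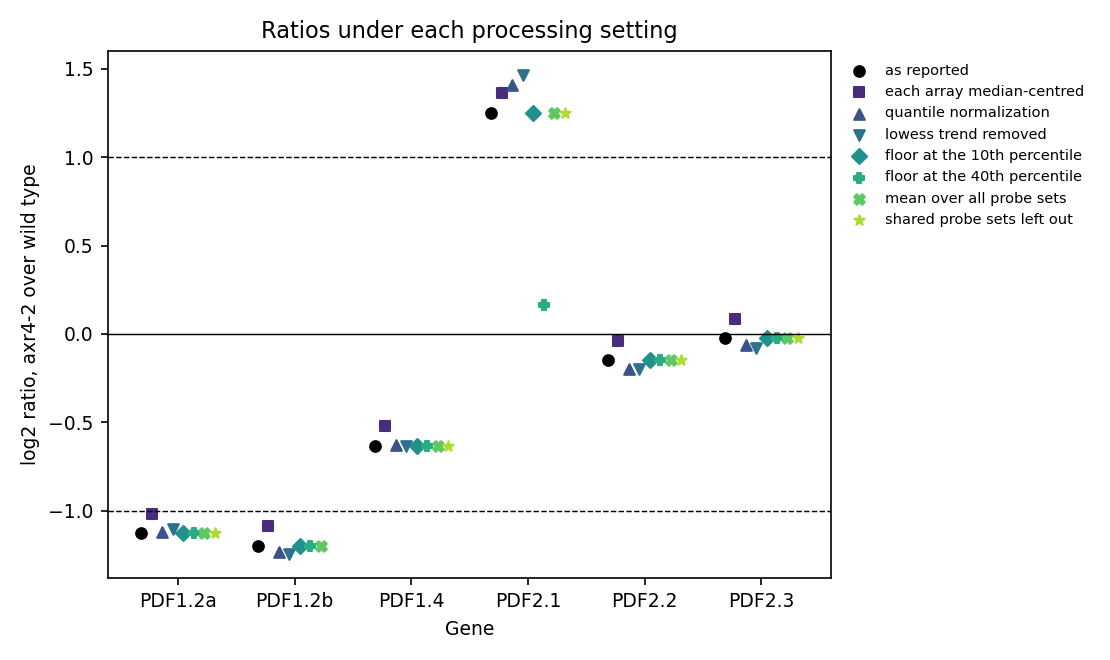
Log2 ratio of axr4-2 over wild type for 6 defensin genes as reported (black) and under 7 alternative settings (coloured symbols); dashed lines mark a 2-fold difference. The shared probe set of PDF1.2b has no value where such probe sets were left out. PDF1.2a and PDF1.2b stay below the lower dashed line, and PDF2.1 is at 0.16 when the 40th percentile serves as floor, against 1.25 as reported.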

How the data were processed

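Total RNA of whole plants was labelled and hybridised to ATH1 arrays, 1 of axr4-2 and 1 of wild type, per the labels' protocols. The authors deposited 1 intensity per probe set for 22810 probe sets. With 2% of values trimmed from each end, the mean was 100.0 for either array, which is how a scaling to a common target leaves it. Neither the software nor the background method is given in the sources used here.

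Groups were taken from the labels. Probe sets were named through the platform annotation's gene identifiers: 13513 had 1 gene, 503 several and 8794 none. Of the 13513, 13436 matched the RefSeq table of assembly TAIR10.1, used for names and gene order. The brightest probe set stood for a gene that had several. The floor, the filter, the 2-fold threshold and the ratio are given in the text. The steps were tested on simulated data with changes larger than those of the defensin genes. That simulation therefore does not show how well ratios near the 2-fold threshold are recovered. Values were computed in Python 3.11.15 with pandas 2.3.3 and numpy 2.4.6, lowess fits with statsmodels 0.14.6, and figures drawn with matplotlib 3.10.9. No test was possible with 1 array a group, and having so few arrays limits the precision. The members and lists were chosen with earlier results of these data known. Genes named are the 9 defensin loci, the measured members of the lists and other defensin-like genes. The rule also asked for the 2 genes nearest in intensity to PDF1.2a and to PDF1.2b, which are left out because intensities of different probe sets are not comparable. Members below the filter and neighbouring genes were added after their values were seen.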

Additional observations from a re-analysis of the deposited data

How the results depend on the processing

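No paired analysis was possible because each genotype has 1 array, and for the same reason no array could be left out. Of 146 alternative values, 135 moved by less than the SD of 0.41 for 1 probe set or, for counts, by less than 1.5 times. The 135 include values that a setting could not change, such as the ratios of bright genes under other floors. With the floor at the 40th percentile PDF2.1 had a log2 ratio of 0.16. Without the filter on dim genes, the median of the defensin genes was -0.17 over 7 genes and that of other PDF genes -0.17 over 3, both being the ratio of the floors. That setting also gave 1 defensin gene 2-fold or more higher (PDF2.1), and -0.12 for the ethylene and jasmonate defence genes over 4 genes. Leaving out shared probe sets removed PDF1.2b, so that 1 defensin gene was 2-fold or more lower. Over all genes, the 94 lower genes became 59 with median centring, 226 with no filter and 31 when filtered at the 75th percentile. The 60 higher genes became 99 with no filter and 16 at the 75th percentile. The filters change the number of genes counted (13356 and 3083). Signal over background limits PDF1.1, PDF2.1 and PAP85: probe sets for Bacillus and tryptophan control transcripts reached 18.1 in axr4-2 and 27.1 in wild type.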
